A study of Mus musculus with 6 samples.

Results

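The 9 transcription factor genes described here belong to the myeloid lineage: Spi1 (which encodes PU.1), Maf, Cebpa, Cebpb, Cebpd, Klf2, Klf4, Klf6 and Runx1. They were followed through caerulein pancreatitis in mouse pancreatic macrophages. They were chosen by gene name, all 9 were found among the 31617 genes of the table, and all 9 were among the 10000 genes with the highest mean level, called expressed genes here. RNA was sequenced from cells sorted as CD45+CD11b+F4/80+ taken from wild type Balb/c pancreas. Mock mice, labelled day 0, had 10 hourly saline injections according to the design text, while their treatment label reads none. The other groups had 10 hourly injections of caerulein and were collected 1, 3, 4, 5 and 7 days after the first. Caerulein is a secretagogue that makes acinar cells digest the gland from within. The design text lists every one of these days except day 4, which is taken from the sample titles, and no source used here gives the age of the mice. Each group is 1 library from a pool of more than 3 mice, so no spread between mice or pools can be given and days cannot be tested against each other.

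These proteins set and tune the identity of macrophages. PU.1 is the ETS-family factor that opens enhancers of many myeloid genes, and Runx1 helps to switch on the Spi1 gene itself during blood development. C/EBP factors bind beside PU.1, with C/EBP-alpha acting early in myeloid commitment and C/EBP-beta and C/EBP-delta being induced by inflammatory signals. Maf helps to hold macrophages in a differentiated state out of the cell cycle, and the zinc finger factors Klf2, Klf4 and Klf6 adjust inflammatory activation, Klf2 mostly as a brake.

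The sequence just upstream of the start site is shown for the genes whose levels moved most over the days, with Cebpa beside Cebpb because these relatives moved in opposite directions. The 250 bases before the start come from RefSeq on GRCm38.p6 and are written 5′ to 3′ in the direction of the gene. Windows were found for 6 of the 9 genes, and Spi1, Maf and Cebpd had no match. Capitals mark the GC box CCCCGCCC, to which SP and KLF proteins bind, the partial cAMP response element TGACG, and TAAATTTA, the core bound by MEF2 proteins, each on either strand.
Klf2, chr8:72318812-72319061, plus strand: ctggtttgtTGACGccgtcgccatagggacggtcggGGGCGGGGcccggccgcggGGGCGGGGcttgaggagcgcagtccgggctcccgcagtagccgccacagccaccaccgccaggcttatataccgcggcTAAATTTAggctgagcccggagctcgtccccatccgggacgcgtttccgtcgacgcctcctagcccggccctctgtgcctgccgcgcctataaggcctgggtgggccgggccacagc
Klf4, chr4:55532476-55532725, minus strand: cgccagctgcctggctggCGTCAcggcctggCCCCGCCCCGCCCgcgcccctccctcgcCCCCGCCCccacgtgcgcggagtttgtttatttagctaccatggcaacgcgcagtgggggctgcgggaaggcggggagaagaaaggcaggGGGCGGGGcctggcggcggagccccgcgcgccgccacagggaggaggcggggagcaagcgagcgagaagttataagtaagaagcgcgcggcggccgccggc
Cebpb, chr2:167688665-167688914, plus strand: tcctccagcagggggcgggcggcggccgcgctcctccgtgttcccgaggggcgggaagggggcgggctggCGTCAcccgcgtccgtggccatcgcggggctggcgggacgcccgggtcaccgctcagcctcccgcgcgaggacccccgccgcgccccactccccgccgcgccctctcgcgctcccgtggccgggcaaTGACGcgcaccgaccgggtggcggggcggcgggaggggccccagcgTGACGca
Cebpa, chr7:35119043-35119292, plus strand: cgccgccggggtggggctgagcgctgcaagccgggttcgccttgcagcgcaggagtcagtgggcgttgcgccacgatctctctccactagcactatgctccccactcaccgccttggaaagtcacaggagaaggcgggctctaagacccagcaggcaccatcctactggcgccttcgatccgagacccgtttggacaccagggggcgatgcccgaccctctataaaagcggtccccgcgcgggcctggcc

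The Klf4 window held 4 GC boxes, a pair of which overlap, and the Klf2 window held 2, while 16.1% of all 32817 windows held at least 1. The Klf2 window also held TAAATTTA at 117 to 110 bases before the start, a sequence found in 0.503% of windows and known from other work as the MEF2 element of this promoter. The Cebpb window held TGACG 3 times, first at 180, 53 and 7 bases before the start, and the Klf2 and Klf4 windows held it once each, against 17.7% of windows with at least 1. Both TAAATTTA and TGACG were added to the search after the sequences had been seen. The Cebpa window held none of the motifs searched. None of the 7 windows of the 9 genes held the PU.1 motif AGAGGAAGT (0.798% of windows), the C/EBP motifs TTGCGCAA (0.165%) and TTGCNNAA (9.57%), the RUNX motif TGTGGT (14.0%), the full element TGACGTCA (1.55%) or the MAF core TGCTGAC (3.81%). A match is a description of letters in this window and not of binding. GC content was 81.6% for Cebpb, 74% for Klf4, 71.2% for Klf2 and 66.4% for Cebpa, against a median of 52.4% over all windows.

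Libraries held between 14853084 reads on day 4 and 25726455 on day 3, and the 9 genes had from 484 reads (Klf4 on day 1) to 46225 reads (Klf6 on day 5), so counting error is small beside most differences described. The values are normalised read counts, that is, reads divided by 1 factor per library. The macrophage gene Adgre1, which encodes the sorted F4/80, was at 11750.1 in mock and 10592, 12632, 11541, 23702 and 9671 on days 1, 3, 4, 5 and 7, and Csf1r, the receptor for the macrophage growth factor CSF1, was at 11449.8 or more in every library. Adgre1 and Csf1r are on a list of 10 expressed macrophage markers, whose members took unlike courses. On day 1, 5 of them stood above mock by 2-fold or more and 2 below by as much. From day 5 to day 7, 9 dropped that far and 0 rose that far. The median log2 ratio of this step was -1.25, and -0.77 at the other end of the scalings described below. Whether this had a part in the day 7 levels of Spi1, Maf, Klf4 and Klf6, lower than on day 5, was not tested. Markers of other cells were also present in each library. The summed level of 9 acinar genes was 479751 in mock and 562500 on day 7 and ran from 22197 to 74758 on the other days, and the sum of 8 fibroblast genes ran from 517 on day 1 to 15691 on day 3. The part of these cells in the values of the 9 genes was not tested. In bulk RNA fewer cells of a type and less RNA per cell cannot be told apart.

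Per kilobase of exon, which allows genes to be compared within a library, the same 4 genes led in every library. Cebpb was the highest in mock, on day 1 and on day 3, with 14085, 16715 and 10674 normalised read counts per kilobase. Klf6 was the highest on day 4 at 11928, and Klf2 on days 5 and 7 at 11688 and 8208. Spi1 completed the group with 2929 to 6223, and the percentile of these 4 genes among expressed genes ran from 96.2 to 99.4.

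The other 5 genes were lower per kilobase. Cebpd followed at 638 to 1010 in the fifth place in every library. Klf4 ran from 195 to 639 per kilobase, Cebpa from 220 to 499, Maf from 116 to 242 and Runx1 from 87.3 to 155. Runx1 was the lowest of the 9 except on day 7, when Maf was lower at 116 against 131. With 1 library per day there is no spread against which neighbours in this order can be told apart, and the exon lengths come from GENCODE M21, which may not be the annotation that was counted.

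**Figure D1:**
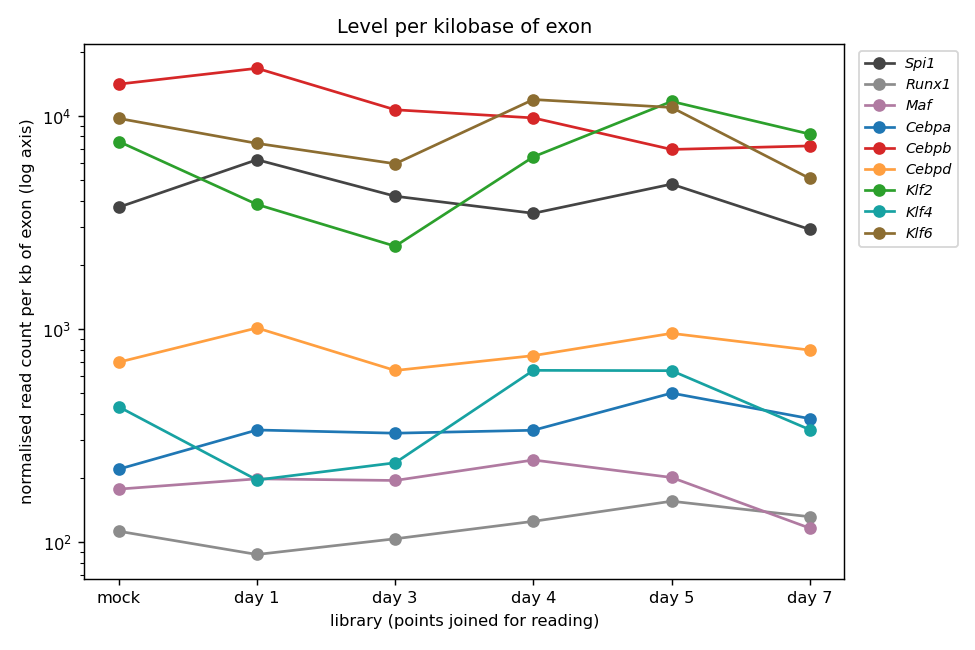
Level of each of the 9 genes per kilobase of exon (vertical log axis, normalised read count per kilobase) in the 6 libraries (horizontal axis), 1 point per library with no error bar. Cebpb lies on top up to day 3, Klf6 on day 4 and Klf2 on days 5 and 7, and Runx1 lies at the bottom except on day 7, when Maf does.

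Over the 6 libraries, Klf2 varied the most, with its highest level 4.78 times its lowest. Klf4 followed at 3.27 times, then Cebpb at 2.40, Klf6 at 2.35, Cebpa at 2.28, Spi1 at 2.12, Maf at 2.09, Runx1 at 1.78 and Cebpd at 1.58. With the pseudocount described next, the median expressed gene varied 2.10-fold, Klf2 4.77-fold, Klf4 3.20-fold and Cebpd 1.58-fold. The percentile of the range with the pseudocount among expressed genes was 88.7 for Klf2, 78.4 for Klf4 and 19.2 for Cebpd. Most of these lineage factors therefore varied about as much as an ordinary expressed gene, and the KLF genes Klf2 and Klf4 varied more.

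**Figure D2:**
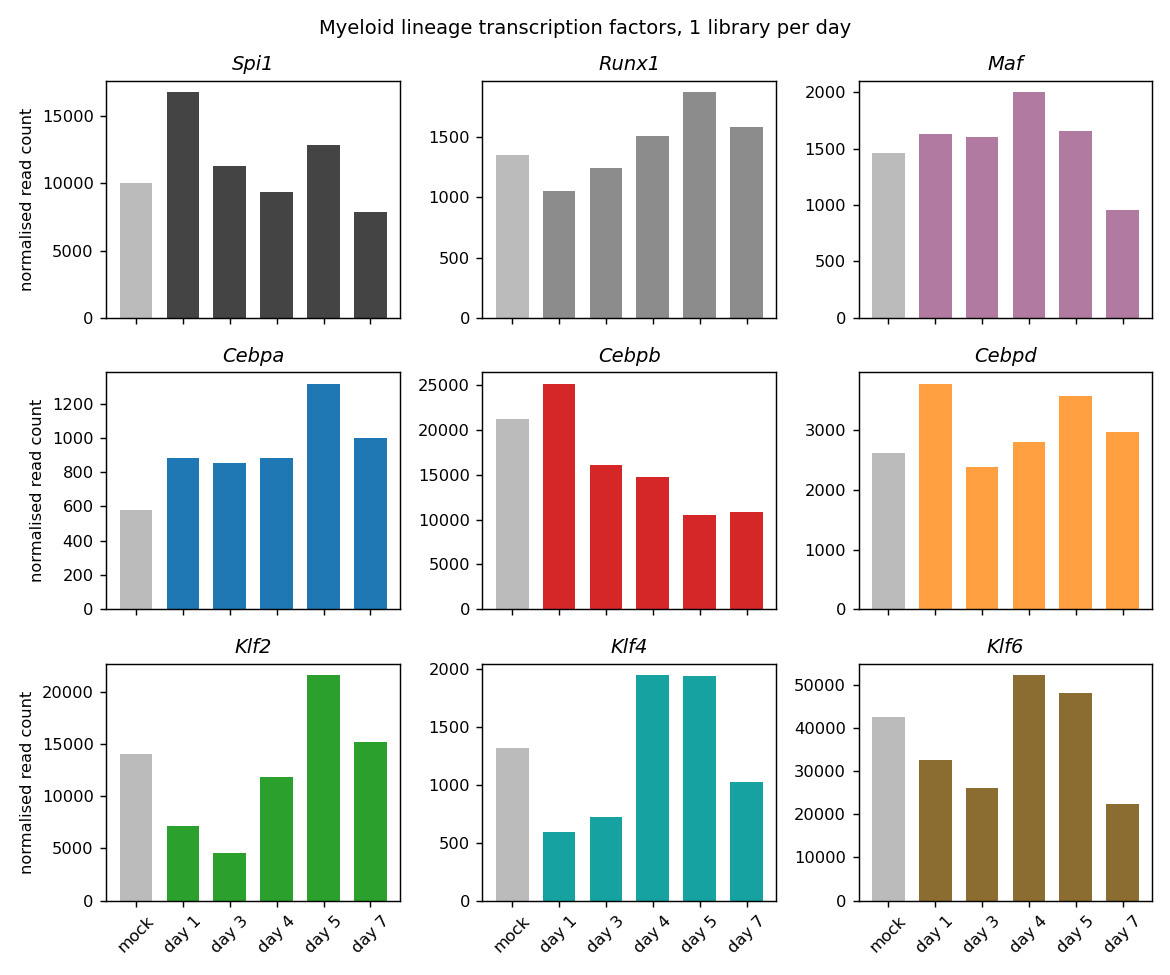
Normalised read count (vertical axes, each from 0) of the 9 genes in the 6 libraries (horizontal axes), 1 bar per library with mock in grey and no error bar because each day has 1 library. Klf2, Klf4 and Klf6 are below mock on days 1 and 3, Klf2 is highest on day 5 and Klf4 and Klf6 on day 4, Cebpb is high at the start and low on days 5 and 7, and Cebpa is lowest in mock and highest on day 5.

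Ratios between libraries are log2 ratios of the normalised read count after adding a pseudocount of 17.8, set from the mean library total, and a gene was counted as past the threshold at 2-fold or more. The range over 5 ways of scaling the libraries is given beside the ratios. Counting intervals between libraries are of the read ratio without the pseudocount, so a ratio need not lie at their centre. The median expressed gene was at -0.11 on day 7 against mock and at -0.01 on day 4 with the deposited scaling, and at 0.16 and -0.20 with equal totals, so small ratios on these days depend on the scaling. The 5 comparisons with mock share the mock library, and successive steps between days share a library as well. Against mock, 1 of 9 genes was past 2-fold on day 1 (11.1%, against 16.3% of expressed genes) and 1 on day 3 (against 9.44%). No member was past 2-fold on day 4 (against 11.4%) or on day 7 (against 8.53%), and 2 of 9 were on day 5 (22.2%, against 10.1%). Between days, 0 of 9 were past it from day 1 to day 3 (against 17.9%), 3 of 9 from day 3 to day 4 (33.3%, against 9.12%, and 2 of 9 under 3 of the other scalings), 0 from day 4 to day 5 (against 8.51%) and 1 from day 5 to day 7 (11.1%, against 9.75%).

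**Figure D3:**
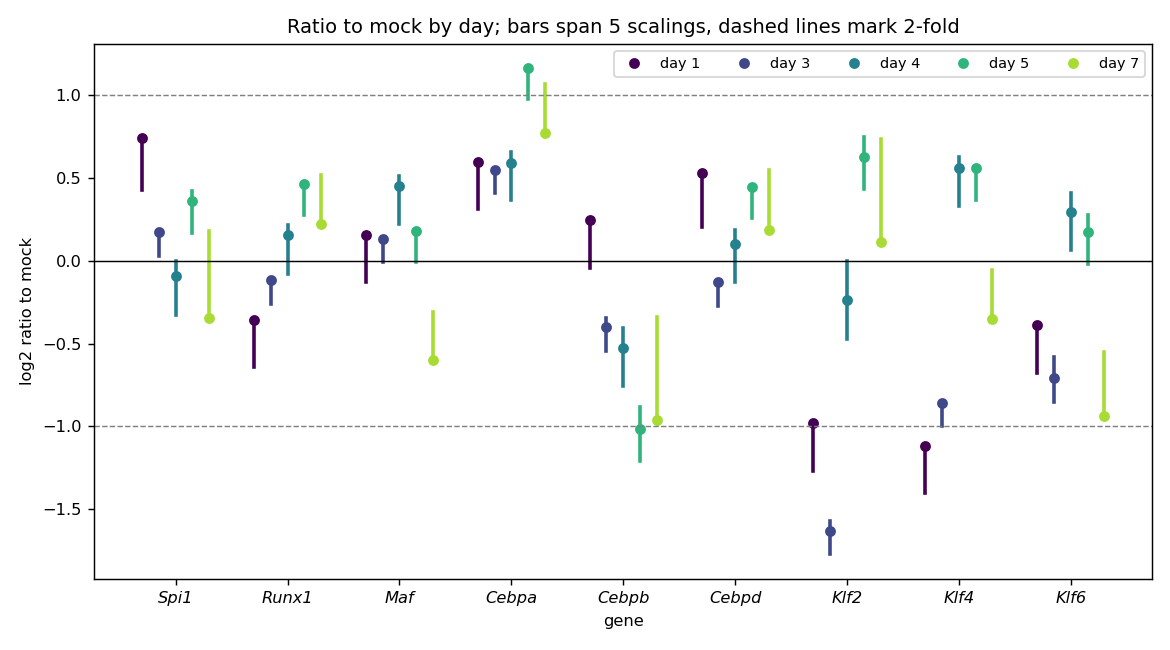
Log2 ratio to mock (vertical axis) of the 9 genes (horizontal axis) on each caerulein day, with points for the deposited scaling, bars for the range over 5 scalings and dashed lines at 2-fold. Klf2 on day 3 lies farthest from 0 at -1.63, and Cebpa and Cebpb on day 5 lie on opposite sides at 1.16 and -1.02.

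The lineage-determining factor Spi1 stayed within 2-fold of mock on every day. Its normalised read count was 10037 in mock, 16772 and 11304 on days 1 and 3, 9397 and 12883 on days 4 and 5, and 7895 on day 7. Day 1 stood highest, at a log2 ratio of 0.74 to mock (0.43 to 0.74 over the scalings), and day 5 was at 0.36 (0.17 to 0.42). Day 7 was the lowest library, at -0.35 with the deposited scaling, but the sign of that ratio turned with another scaling (up to 0.18).

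PU.1 often binds with partners of the IRF family and shares its binding site with other ETS factors. Of the 11 listed ETS genes, those with the largest ratios are named. Ets1, an ETS factor abundant in lymphocytes, was at 1491.7 in mock and 269.5, 181, 285, 469 and 2544 on days 1, 3, 4, 5 and 7. Spib, the relative of PU.1 in B cells and plasmacytoid dendritic cells, was at 166 in mock and between 24.6 and 61.5 on days 1 to 5, and at 247 on day 7. Summed markers of B cells (6649 in mock, 757 to 1968 on days 1 to 5 and 6061 on day 7) and of T cells (2812, 373 to 1462 and 4383) moved with both genes, and their part in these values was not tested. Spic, the relative that serves iron-recycling macrophages, had another course, with 147 in mock, 54.1 and 50.7 on days 1 and 3, and 357, 244 and 122 on days 4, 5 and 7. Of the 11 genes, 3 were past 2-fold lower on each of days 1, 3, 4 and 5 and 1 on day 7, while 1 was higher on day 4. In either direction, 16.3%, 9.44%, 11.4%, 10.1% and 8.53% of expressed genes were past it on days 1, 3, 4, 5 and 7. Irf8, which works with PU.1 in monocytes, was at 6261 in mock and 9886, 6635, 10352, 12239 and 8508 on the following days, at most 0.97 above mock on the log2 scale.

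Genes known from other work to be controlled by PU.1 were spread around 0. Of 15 expressed genes, 4 were past 2-fold higher and 1 lower on day 1, 0 and 0 on day 3, 2 and 3 on day 4, 3 and 1 on day 5, and 0 and 2 on day 7, with medians of 0.25, 0.02, -0.03, 0.30 and -0.34 in that order. The medians of all expressed genes on those days were 0.15, 0.08, -0.01, 0.12 and -0.11. Their shares past 2-fold in either direction were 16.3%, 9.44%, 11.4%, 10.1% and 8.53%. Fcgr1, the high-affinity IgG receptor, was at 5610 in mock, 29526 on day 1 and 2727 on day 7. Mpeg1, which encodes the pore protein perforin-2 of phagocytes, was at 8184 in mock and 27466.5 on day 5. Msr1, a scavenger receptor, was at 7673 in mock, 20400.1 on day 1 and 2415 on day 7. Csf1r was at 23532 in mock and 11449.8 on day 1, its lowest library and the one in which Spi1 was highest, and at 44659 on day 5.

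Runx1, the master factor of blood formation, also stayed within 2-fold. It was at 1349 in mock, 1049.7 and 1244 on days 1 and 3, 1502 and 1867 on days 4 and 5, and 1579 on day 7. The lowest library was day 1 (-0.36, and -0.64 to -0.36 over the scalings) and the highest day 5 (0.46, and 0.27 to 0.46). Of 5 expressed genes of the RUNX family and its partners, none was past 2-fold from mock on any day. The share of expressed genes past it ran from 8.53% on day 7 to 16.3% on day 1. Runx3, which directs cytotoxic T and NK cells, was at 333 in mock, 173 on day 4 and 556 on day 7, and the co-repressor Cbfa2t3 was at 306, 150.1 (day 1) and 611 (day 7). The related co-repressor Cbfa2t2 ran from 306 in mock to 456 on day 5.

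Maf was highest on day 4 and lowest on day 7. Its normalised read count was 1458 in mock, 1629 and 1601 on days 1 and 3, 1998 and 1654 on days 4 and 5, and 956 on day 7. On day 4 its log2 ratio to mock was 0.45 (0.22 to 0.51 over the scalings). On day 7 it was -0.60 (-0.60 to -0.31 over the scalings), and from day 5 to day 7 it was -0.78 (-0.78 to -0.30), which is below 2-fold under every scaling.

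The small MAF proteins Maff and Mafg, which lack an activating domain, had other courses. Maff was at 406 in mock, 118 on day 1 and 70.9 on day 7, and Mafg at 1126 in mock, 2017 on day 1 and 807 on day 7.

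Genes known to be controlled by Maf were lower on day 1, when Maf itself was at 0.16 on the log2 scale (-0.13 to 0.16 over the scalings). Of 9 expressed genes, 7 were past 2-fold lower and 0 higher on day 1, with a median log2 ratio of -1.26 (-1.66 to -1.26 over the scalings, against 0.15 for all expressed genes). On day 3 none was past 2-fold, on day 4 there were 1 higher and 1 lower, on day 5 there were 3 higher and 1 lower, and on day 7 there were 0 higher and 2 lower. The shares of all expressed genes past 2-fold in either direction were 16.3%, 9.44%, 11.4%, 10.1% and 8.53% on days 1, 3, 4, 5 and 7. Cd163, the haemoglobin scavenger receptor of resident macrophages, was at 2356 in mock, 519 and 1321 on days 1 and 3, 1362 and 1801 on days 4 and 5, and 2113 on day 7. Sepp1, a selenium carrier protein, was at 51332 in mock, 17680.4 on day 1 and 222588 on day 4. Il10, an anti-inflammatory cytokine, was at 707 in mock, 618, 1364, 611 and 446 on days 1 to 5, and 50.7 on day 7. The sum of 11 monocyte markers was 73406 in mock and 162514 on day 1, its highest value. Of the 11, 6 were past 2-fold higher and 2 lower on day 1. F13a1, which is on both lists, was at -1.16. The part of monocytes in the low day 1 levels of the genes controlled by Maf was not tested.

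The C/EBP genes parted, with Cebpb lower and Cebpa higher than mock on day 5. Cebpb was at 21184 in mock, 25139 and 16053 on days 1 and 3, 14704 and 10458 on days 4 and 5, and 10864 on day 7. Days 5 and 7 were the lowest libraries, and day 5 was 2.02-fold lower than mock (log2 ratio -1.02, 95% counting interval -1.05 to -0.98). Over the scalings this ratio ran from -1.21 to -0.88, so that 2-fold was not reached under each of them, and relative to the median expressed gene it was -1.13. On day 7 it was -0.96 with the deposited scaling but -0.34 at the other end, so the size of the day 7 difference depends on the scaling.

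Cebpa, the factor of early myeloid commitment, was lowest in mock. Its normalised read count was 579 in mock, 884 and 854 on days 1 and 3, 881 and 1317 on days 4 and 5, and 999 on day 7, so that every caerulein library stood above mock. On day 5 it was 2.24-fold higher (log2 ratio 1.16, 95% counting interval 1.05 to 1.33, and 0.98 to 1.16 over the scalings). On days 1, 3, 4 and 7 the log2 ratio was 0.60 (0.31 to 0.60 over the scalings), 0.55 (0.41 to 0.55), 0.59 (0.36 to 0.66) and 0.77 (0.77 to 1.06), so that day 7 passed 2-fold under some scalings.

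On day 5 the balance between Cebpb and Cebpa differed from mock by more than either gene alone, since the genes lay on opposite sides of mock. A ratio of the reads of 2 genes in the same library does not depend on scaling, and since it carries their lengths only its differences between libraries are read here. There were 36.6 reads of Cebpb per read of Cebpa in mock, 28.5 and 18.8 on days 1 and 3, 16.7 and 7.94 on days 4 and 5, and 10.9 on day 7. Each caerulein day lay below mock. The log2 change was smallest on day 1 at -0.36, when both genes were above mock with the deposited scaling, and on day 5 the ratio was 4.61-fold lower (log2 change -2.20, 95% counting interval -2.35 to -2.06). On day 7 the log2 change was -1.75. Leaving out the pseudocount moved no pair by more than 0.0255 on the log2 scale.

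**Figure D4:**
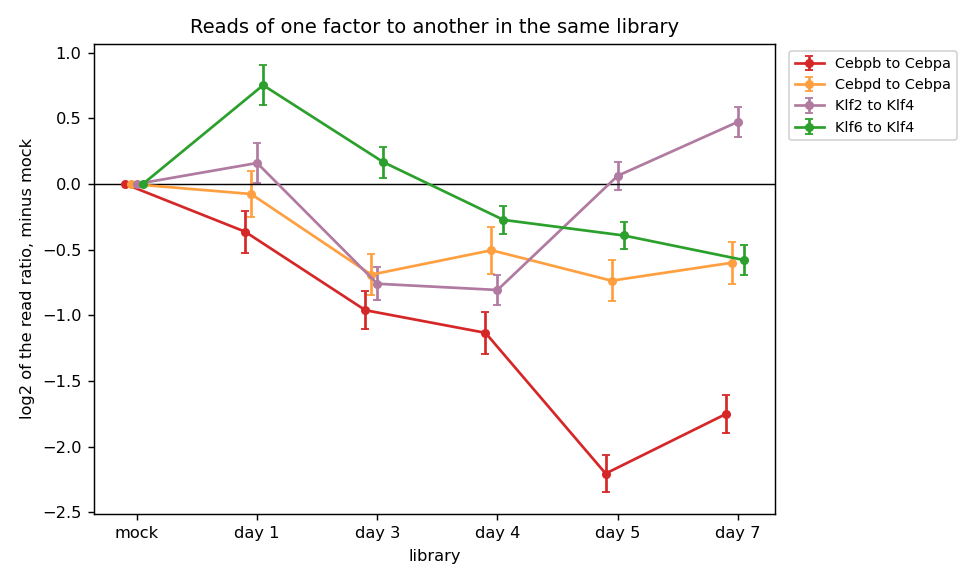
Log2 of the ratio of reads of one factor to another within a library, minus that in mock (vertical axis), in the 6 libraries (horizontal axis), with bars for the 95% counting interval. Cebpb to Cebpa goes farthest, to -2.20 on day 5, and Cebpd to Cebpa is at -0.74 on that day.

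Cebpd, the family member induced in acute inflammation, varied the least of the 9 genes. It was at 2614 in mock, 3784 and 2389 on days 1 and 3, 2805 and 3569 on days 4 and 5, and 2978 on day 7. Day 1 was the highest library, at 0.53 above mock on the log2 scale (0.20 to 0.53 over the scalings), and days 3 and 7 were at -0.13 (-0.27 to -0.13) and 0.19 (0.19 to 0.54). Per read of Cebpa there were 4.52 reads of Cebpd in mock and 4.28, 2.80, 3.18, 2.71 and 2.98 on the caerulein days, a smaller shift than that of Cebpb. Of the 4 other C/EBP genes, Ddit3, the stress-induced inhibitor of the family known as CHOP, was at 512 in mock, 1557 and 409 on days 1 and 3, 784 and 1168 on days 4 and 5, and 335 on day 7. Cebpe, the factor of late granulocyte maturation, was at 101 in mock and 20.8 on day 5, and Cebpg, a partner that lacks an activation domain, ran from 1085 to 1811.

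Genes that C/EBP factors are known to control stood far below mock on days 5 and 7. Of 14 expressed genes, 2 were past 2-fold higher and 3 lower on day 1, 0 and 5 on day 3, 1 and 8 on day 4, 2 and 11 on day 5, and 1 and 12 on day 7. Their median log2 ratios were -0.36, -0.34, -1.31, -3.17 and -2.16, and on day 5 the median ran from -3.33 to -2.99 over the scalings, against 0.12 for all expressed genes. The shares of all expressed genes past 2-fold in either direction were 16.3%, 9.44%, 11.4%, 10.1% and 8.53% on days 1, 3, 4, 5 and 7. Arg1, which breaks down arginine and whose enhancer binds C/EBP-beta, was at 4691 in mock, 3934 on day 1 and 5194 on day 3, then 203, 115 and 278 on days 4, 5 and 7. Saa3, an acute phase protein, was at 15380.0 in mock, 8174, 3848, 1289 and 581 on days 1 to 5, and 3490 on day 7. Cxcl1, a chemokine for neutrophils, was at 13047 in mock, 3160 and 14311.5 on days 1 and 3, 12283 and 1487 on days 4 and 5, and 551 on day 7. Genes of the list took unlike courses beside Cebpb. Arg1 was past 2-fold lower already on day 4, when Cebpb was at -0.53 (-0.76 to -0.41). Saa3 and Cxcl1 were at -0.91 and -2.04 on day 1, when Cebpb was at its highest. Chil3, Fcgr1, Hp and Lcn2, picked after their values were seen, were highest on day 1 like Cebpb, at 2.43, 2.39, 0.92 and 0.75. Whether Cebpb had a part in these levels was not tested.

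Monocyte and neutrophil markers were also low on days 5 and 7, while the sum of 8 dendritic cell markers was 5027 in mock, 3290 on day 5 and 7830 on day 7. On day 5 the dendritic cell markers Ccr7 and Cd209a were at log2 ratios of -1.89 and -0.84, and the others were above mock. The median of the 7 expressed ones was 0.38 on day 5 and 0.52 on day 7. The sum of 11 monocyte markers was 73406 in mock, 162514, 67875 and 31145 on days 1, 3 and 4, 25886 on day 5 and 37104 on day 7, highest on day 1 as was Cebpb. The sum of 11 neutrophil markers was 15300 in mock and 5027 and 7302 on days 5 and 7, with no marker of either list at 0. The part of these cells in the levels of Cebpb and its listed genes was not tested. Without Chil3, Hp and Ltf, which are also on these marker lists, 8 of 11 genes were past 2-fold lower on day 5 and 10 of 11 on day 7, with medians of -3.12 and -2.18. On days 1, 3 and 4, there were 3, 3 and 5 of 11 lower, with medians of -0.77, -0.23 and -0.56. Those past 2-fold higher were 1, 0, 1, 2 and 1 on days 1, 3, 4, 5 and 7.

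**Figure D5:**
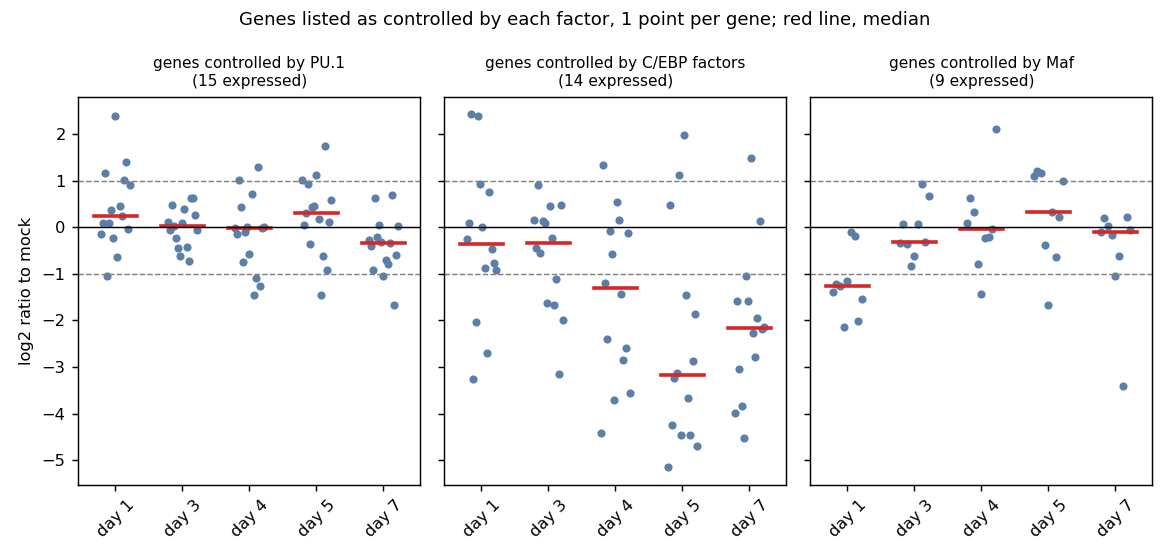
Log2 ratio to mock (vertical axis) on each caerulein day (horizontal axes) for genes listed as controlled by PU.1, C/EBP factors and Maf, with 1 point per expressed gene and a red line at the median. The C/EBP median goes to -3.17 on day 5, the Maf median is -1.26 on day 1, and the PU.1 medians lie between -0.34 and 0.30.

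Klf2, a factor that restrains inflammatory activation and that lymphocytes and endothelium also use, was low on days 1 and 3 and highest on day 5. Its normalised read count was 13992 in mock, 7088 and 4512 on days 1 and 3, 11859.7 and 21588 on days 4 and 5, and 15159.9 on day 7. The libraries of days 1 and 3 lay below all others. On day 3 it was 3.09-fold lower than in mock (log2 ratio -1.63, 95% counting interval -1.68 to -1.59, and -1.77 to -1.57 over the scalings), and relative to the median expressed gene the ratio was -1.70. On day 1 it was at -0.98 (-1.27 to -0.98), just short of 2-fold with the deposited scaling and past it with each of the other 4. From day 3 to day 4 it was 2.62-fold higher (log2 ratio 1.39, 95% counting interval 1.35 to 1.44, and 1.30 to 1.57 over the scalings), and day 5 stood at 0.62 above mock on the log2 scale (0.43 to 0.75).

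Because Klf2 is abundant in lymphocytes and endothelium, their markers are given beside it. Summed T cell markers were 2812 in mock, 593 and 373 on days 1 and 3, 908 and 1462 on days 4 and 5, and 4383 on day 7. NK cell markers summed to 2196, 706, 138, 331, 1094 and 5270 in the same order. B cell markers summed to 6649, 1968, 757, 1101, 1355 and 6061. These sums were lowest on day 3, as was Klf2. On day 5, when Klf2 was at its highest and above mock, all 3 sums were below mock, and on day 7, when the T and NK sums were at their highest, Klf2 was lower than on day 5. The part of lymphocytes in the Klf2 values was not tested. The sum of 8 endothelial markers ran from 164 on day 5 to 463 on day 7, with 1 marker, Cldn5, at 0 in 2 libraries. Only 1 of the 8, Pecam1, was among the expressed genes, at 104 on day 5 and 296 on day 7. On days 4 and 5, 4 and 3 of the 8 had at most 3 reads, so the sum is a poor measure of endothelium. The part of endothelium in the Klf2 values was not tested either.

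Klf4, which monocytes need for their development and which supports alternative activation, shared the low days 1 and 3. It was at 1313 in mock, 596 and 717 on days 1 and 3, 1947 and 1941 on days 4 and 5, and 1025 on day 7. On day 1 it was 2.17-fold lower than in mock (log2 ratio -1.12, 95% counting interval -1.29 to -0.99, and -1.40 to -1.12 over the scalings), and on day 3 the ratio was -0.86 (-0.999 to -0.86). From day 3 to day 4 it was 2.67-fold higher (log2 ratio 1.42, and 1.33 to 1.54 over the scalings), and days 4 and 5 both stood at 0.56 above mock on the log2 scale (0.33 to 0.63 and 0.37 to 0.56). From day 5 to day 7 it was at -0.91 with the deposited scaling and -0.43 at the other end.

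Klf6, an abundant factor quickly induced by many stimuli, was below mock on days 1 and 3, at -0.39 and -0.71 on the log2 scale (-0.68 to -0.39 and -0.85 to -0.58 over the scalings). It was at 42689.7 in mock, 32605.5 and 26153 on days 1 and 3, 52374 and 48072 on days 4 and 5, and 22312 on day 7. Days 3 and 7 were the lowest libraries. From day 3 to day 4 it just passed 2-fold (log2 ratio 1.00, 95% counting interval 0.98 to 1.02, and 0.91 to 1.12 over the scalings). From day 5 to day 7 the ratio was -1.11, and it was -0.62 at the other end of the scalings, all 4 of the alternatives leaving it short of 2-fold.

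Klf2, Klf4 and Klf6 were the 3 of 9 genes past 2-fold from day 3 to day 4 with the deposited scaling. With equal totals, quantiles or totals without acinar, erythroid and mitochondrial genes Klf6 was at 0.92, 0.99 and 0.91, which left 2 of 9, and Klf2 and Klf4 passed under every scaling. The KLF genes did not keep a fixed proportion. There were 10.7 reads of Klf2 per read of Klf4 in mock, 11.9 on day 1, 6.29 and 6.09 on days 3 and 4, 11.1 on day 5 and 14.8 on day 7. There were 32.5 reads of Klf6 per read of Klf4 in mock, 54.7 and 36.5 on days 1 and 3, 26.9 and 24.8 on days 4 and 5, and 21.8 on day 7. The highest Klf6 share was thus on day 1, when Klf4 was lowest, and the highest Klf2 share over Klf4 was on day 7.

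No other expressed KLF gene was past 2-fold from day 3 to day 4, against 9.12% of all expressed genes. Of 14 others, 6 were expressed, with a median log2 ratio of 0.14 in that step. Klf9, a gene induced by glucocorticoids and thyroid hormone, was at 641 in mock, 177 and 388 on days 1 and 3, 348 and 286 on days 4 and 5, and 465 on day 7. Klf7 was at 997 in mock, 512 and 685 on days 1 and 3, 1131 and 662 on days 4 and 5, and 637 on day 7, with a log2 ratio of 0.71 from day 3 to day 4. Klf11 ran from 449 on day 1 to 662 in mock.

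Immediate early genes, which also respond to the handling of tissue, held all the genes past 2-fold in the same step among a list of immediate early and heat shock genes. Of 18 genes, 7 were past 2-fold higher and 0 lower from day 3 to day 4, against 9.12% of all expressed genes in either direction. The median log2 ratio of the 18 was 0.60, against -0.08 for all expressed genes. The heat shock genes were not among the 7: their log2 ratios in this step were -0.91 for Hspa1b, -0.70 for Hsph1, -0.19 for Hsp90aa1, -0.09 for Hspa1a and 0.41 for Dnajb1. Egr1, Fosb and Jund, like these 5, were picked from the list after their values were seen. Egr1 was at 28392 in mock, 6231 and 10095 on days 1 and 3, 30803 and 39950.3 on days 4 and 5, and 20375 on day 7, and so was low on days 1 and 3 like the KLF genes. Fosb was at 1869.9 in mock, 746, 1181, 3623, 2548 and 1372 on the caerulein days, and Jund at 8638, 5385, 4538, 12208, 16196 and 10203. Of the 18 genes, 4 were past 2-fold lower than mock on day 1 and 3 on day 3, and none was higher. The shares of all expressed genes past it in either direction were 16.3% and 9.44%. The medians of the 18 were -0.20 and -0.56, against 0.15 and 0.08 for all expressed genes. Among genes picked in the same way, Fos was above mock on day 1 (0.40) and Ier3 on day 3 (0.44). Hspa1a and Hspa1b were at -2.31 and -2.64 on day 1 and at -1.27 and -1.46 on day 3. Whether the handling of the pools had a part in the KLF levels was not tested.

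The genes nearest to Klf2 over the 6 libraries were Trpv4, Slamf8 and BC035044. Likeness was measured as the root mean square difference between log2 profiles, each centred on its own mean, over 6 libraries. It was 0.10 for Trpv4, a calcium channel that responds to stretch and warmth, 0.12 for Slamf8, a receptor of myeloid cells, and 0.15 for BC035044, against a median of 0.84 over expressed genes. Trpv4 was at 767 in mock, 373 and 249 on days 1 and 3, 582 and 1066 on days 4 and 5, and 909.6 on day 7. Slamf8 was at 348, 196, 93.0, 257, 509.6 and 398 in the same order. With 10000 genes and 6 libraries some close profiles are always found, and nothing about shared function follows.

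The 4 expressed genes listed as controlled by Klf2, known from endothelium or lymphocytes, had median log2 ratios to mock of 0.51, -0.37, -0.17, -0.41 and -0.19. These are for days 1, 3, 4, 5 and 7, against 0.15, 0.08, -0.01, 0.12 and -0.11 for all expressed genes. A pair of them is given here. S1pr1, the receptor for exit from lymphoid tissue, was at 1405 in mock, 539 and 1097 on days 1 and 3, 1797 and 1157 on days 4 and 5, and 1405 on day 7. It was thus below mock on days 1 and 3 like Klf2, but also on day 5, when Klf2 was highest. Cdkn1a, the cell cycle inhibitor p21, was at 8927 in mock, 15337 on day 1 and 2998 on day 7.

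Other regulators of myeloid identity had the most genes past 2-fold from mock on day 1, as did all expressed genes. Of 19 expressed genes, 3 were past 2-fold higher and 9 lower on day 1, 0 and 5 on day 3, 1 and 2 on day 4, 2 and 5 on day 5, and 0 and 4 on day 7. From day 3 to day 4 there were 5 higher and 0 lower. Of all expressed genes, 16.3%, 9.44%, 11.4%, 10.1% and 8.53% were past 2-fold from mock in either direction on days 1, 3, 4, 5 and 7. From day 3 to day 4 the share was 9.12%. Id3, an inhibitor of helix-loop-helix factors, was at 1856 in mock, 902 and 2886 on days 1 and 3, 1929 and 578 on days 4 and 5, and 318 on day 7. Bhlhe40, which supports inflammatory and proliferating macrophages, was at 3906 in mock and 1533, 2173, 1595, 728 and 2345 on the caerulein days. Irf4, a factor of alternatively activated macrophages and of lymphocytes, was at 283 in mock, 46.8 and 64.1 on days 1 and 3, 173 and 276 on days 4 and 5, and 344 on day 7. Zeb2, which keeps tissue macrophages in their identity, stayed between 4552 and 6171.

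A count test that takes the libraries of different days as replicates was run on whole reads recovered from the values, as an alternative added because no replicate exists. For a linear trend over day, edgeR's quasi-likelihood test called 0 of 14106 genes at an adjusted p under 0.05 (0%, with 806 at an unadjusted p under 0.05), and DESeq2 called 20. None of the 9 genes was called by either tool. Cebpb had the steepest slope of the 9, at -0.17 on the log2 scale per day, with an adjusted p of 0.726 by edgeR's quasi-likelihood test with Benjamini-Hochberg adjustment (unadjusted p = 0.0344) and an adjusted p of 0.399 by DESeq2. For the 5 caerulein libraries against mock, edgeR called 0 genes (102 at an unadjusted p under 0.05) and DESeq2 called 2, again with none of the 9 among them. Both tests take the differences between days as error, and a level that goes down and up again, as Klf2 does, is not what a linear trend measures.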

How the data were processed

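The authors deposited a normalised signal per gene for 31617 genes in 6 libraries. Each deposited value is a whole read count divided by 1 factor per library, since 100% of values were whole within 0.01 reads. Per the submitters' processing notes, Bowtie 0.12.2 and mm8 were named without a role. No source used here gives the counter or its strand setting, so reads of Maf, Cebpa, Cebpb, Cebpd and Runx1 cannot be told from those of overlapping genes on the other strand (51 to 562 bases of exon), and no gene coordinates are given. Lengths are exon unions of GENCODE M21 (GRCm38), matched by Ensembl ID for 99.4% of genes.

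The 9 genes and all gene lists were chosen with earlier results of these data known. Lists come from general knowledge, and named genes are, per list, up to 3 with the largest ratio to mock plus Irf8, Zeb2, Csf1r and Adgre1. Some genes under this rule are not reported here. Nearest profiles were named for genes with a range of at least 4-fold. Log2 ratios used a pseudocount of 17.8, which understates ratios of low genes, over the 10000 genes of highest mean (lowest mean 74.1). Scalings were the deposited one, median centring, equal totals, quantiles, and equal totals without acinar, erythroid and mitochondrial genes. Intervals of ratios between libraries are 95% Clopper-Pearson intervals of reads without the pseudocount. For the 9 genes they reach at most 0.16 to either side of their own centre on the log2 scale. Intervals of pair changes are 95% intervals by a normal approximation. Both kinds cover counting error only. Libraries held 14853084 to 25726455 reads. Count tests took genes with at least 60 reads in all (R 4.3.3 with DESeq2 1.42.0 and edgeR 4.0.16). Ratios, intervals and plots were made in Python 3.11.15 with scipy 1.17.1, numpy 2.4.6, matplotlib 3.10.9 and pandas 2.3.3, after a trial on simulated data.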

Additional observations from a re-analysis of the deposited data

How the results depend on the processing

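No paired analysis was possible because each day has 1 library, and no library could be left out. Of 648 recomputed ratios of the 9 genes (81 ratios under 8 alternatives each), 612 kept their sign and 34 turned, none of them past 2-fold and none above 0.39 in size, and the other two came to 0. On day 1 against mock, 1 of the 9 genes was past 2-fold, and 2 were with median centring, equal totals, quantiles or totals without acinar, erythroid and mitochondrial genes. On day 5 against mock it was 2, and 1 with quantiles or totals without those genes. On day 7 against mock it was 0, and 1 with equal totals or totals without those genes. From day 5 to day 7 it was 1, and 0 with each of the 4 other scalings. From day 3 to day 4 it was 3, and 2 with equal totals, quantiles, totals without those genes or a pseudocount 5 times as large.

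At 1.5-fold the counts against mock were 4, 3, 1, 3 and 4 for days 1, 3, 4, 5 and 7. Between days they were 3 from day 1 to day 3, 3 from day 3 to day 4, 1 from day 4 to day 5 and 4 from day 5 to day 7. At 3-fold they were 0 on day 1, 0 on day 5, 0 from day 3 to day 4 and 0 from day 5 to day 7, while Klf2, at 3.09-fold lower than mock, was past it on day 3.

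Expressed genes past the threshold, in the order days 1, 3, 4, 5 and 7 against mock, were 1626, 944, 1142, 1008 and 853. With 6000 genes they were 839, 454, 584, 516 and 530. At 1.5-fold they were 3719, 2427, 2557, 2460 and 3074, and at 3-fold 704, 427, 497, 418 and 179. For the steps to days 3, 4, 5 and 7 they were 1793, 912, 851 and 975, with 6000 genes 924, 433, 532 and 541, at 1.5-fold 3708, 2447, 2783 and 3010, and at 3-fold 822, 388, 292 and 399. A pseudocount 5 times as large gave 506 on day 7 against mock and 537 from day 4 to day 5, and the table of all genes gave 1402 from day 3 to day 4 and 1672 from day 5 to day 7. For the trend over day edgeR called 0 genes and DESeq2 20, and for caerulein against mock 0 and 2. The causes were not tested beyond what each setting changes by construction.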
